A study of Mus musculus with 9 samples.

Results

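Among 9 arrays of whole mouse skin, 3 carried high RNA of Krt25, an inner root sheath keratin that a hair follicle makes while it builds a hair. These 3 arrays were set against the other 6 across all measured genes apart from Krt25. The arrays were chosen by their own Krt25 signal, above 1000 in the one group and below 200 in the other, so the differences between them are described here and not tested. The high group is knockout 1, knockout 2 and knockout 5. The low group is knockout 3, knockout 4 and wild type 1 to 4. Knockout mice were homozygous for the loss of Cd1d (Cd1d -/-), which encodes a surface protein that displays lipid antigens to natural killer T cells, and wild-type mice carried both copies (Cd1d +/+). All 9 were inbred mice on the C57BL/6 background that had not been exposed to ultraviolet B light, and each array holds the skin RNA of a single mouse. Age and sex were matched per the labels and their values are not given in the sources used here, nor is a hair cycle stage or a site on the body. All 3 high arrays came from knockout mice, so Krt25 class and genotype overlap in part, and the comparison was repeated inside the 5 knockout arrays, 3 against 2.

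Hair follicles pass through cycles of growth (anagen), regression (catagen) and rest (telogen). In growth, matrix cells at the base of the follicle divide around a dermal papilla and differentiate into concentric layers, the hair shaft in the centre and the inner root sheath around it, while melanocytes of the bulb make pigment and pass it to the shaft. The shaft is built from hair keratins and then filled with keratin-associated proteins, and the inner root sheath hardens around trichohyalin. At rest these layers are not produced, and the follicle keeps a club hair above a small group of stem and germ cells.

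Signals are in arbitrary units of Microarray Suite 5.0 (MAS5), which scaled every array to the same trimmed mean of 200.1. Krt25 has 1 probe set on the array. Its signal was 2647.9 in knockout 1, 4915.8 in knockout 2 and 2892.5 in knockout 5. The other knockout arrays, 3 and 4, gave 52.1 and 4.6, and the wild-type arrays gave 13.4, 3.8, 148.3 and 3.0 in their order. The array just inside the upper threshold is knockout 1 at 2647.9 and the array just outside the lower one is wild type 3 at 148.3, with no array in between. Signals below 43.2 to 53.1, the 40th percentile of an array, are treated here as close to the noise of the chip, so a value of 3.0 is not a measured level.

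The other markers of growing follicles divided the arrays in the same way. Krt35, a keratin of the hair shaft, read 683.1, 1274.2 and 799.4 in knockout 1, 2 and 5 and 6.0 to 65.8 in the other 6 arrays. Krt36, another shaft keratin, read 248.2, 396.0 and 309.5 against 95.8 to 169.5. Dlx3, a homeodomain transcription factor of the hair matrix and shaft, read 542.5, 847.0 and 514.6 against 131.2 to 174.9. All 3 markers lay higher in each of the 3 arrays than in any of the 6, and Krt35 and Dlx3 did so by more than 2-fold at the closest pair of arrays. The 3 markers were set together with the Krt25 rule, so their agreement does not test the label of growing against resting follicles. Krt36 and Dlx3 were well above the noise in the low arrays too, and rest was not told apart from regression. In whole skin, fewer cells of a type and less RNA per cell cannot be told apart.

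**Figure D1:**
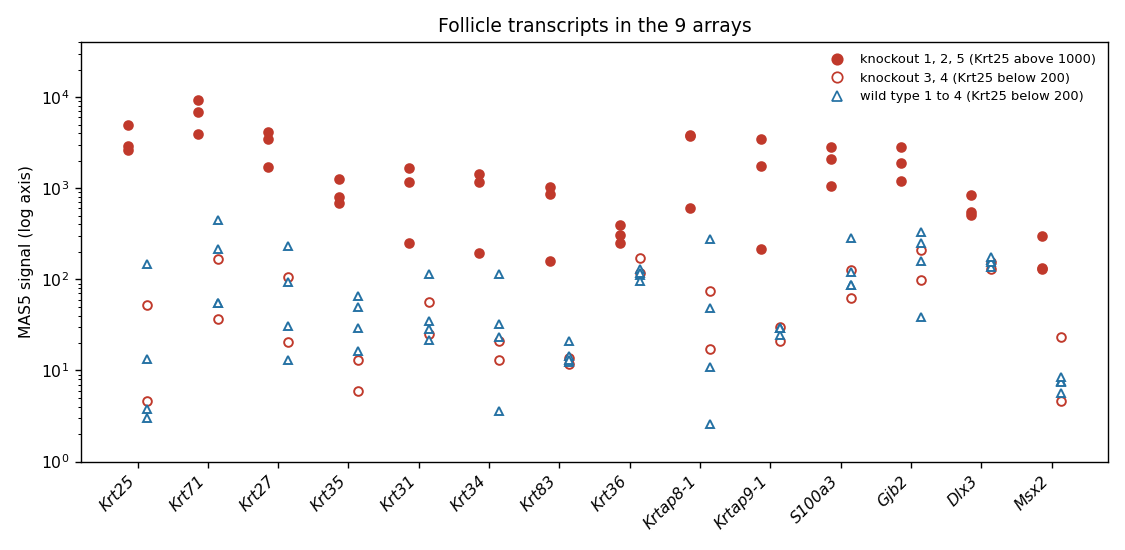
MAS5 signal (log axis) of 14 follicle genes in each of the 9 arrays; filled circles are knockout 1, 2 and 5, open circles knockout 3 and 4, triangles wild type 1 to 4. For every gene plotted the 3 filled circles lie above all other symbols, with Krt71 between 3892.5 and 9340.4 against 36.5 to 445.8 in the other 6 arrays.

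Promoter sequence is shown because many of the genes higher in the 3 arrays are keratin and keratin-associated protein genes that share short elements in the 250 bases before their start. Sequences come from RefSeq, build GRCm38.p6, written 5′ to 3′ on the strand of the gene and ending at the base before the start. Capitals mark the letters TATAAA, the core of a TATA box, or CTTTGAA, a form of the site bound by LEF1 and the TCF factors that carry Wnt signals. Krt25 (chr11:99322952-99323071), Krt27 (chr11:99351119-99351238), Krt71 (chr15:101743098-101743217) and Krtap8-1 (chr16:89487953-89488072) are on the minus strand, and the last 120 bases are shown.
Krt25: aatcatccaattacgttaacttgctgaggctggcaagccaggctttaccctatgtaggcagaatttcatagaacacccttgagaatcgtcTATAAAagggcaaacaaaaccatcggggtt
Krt27: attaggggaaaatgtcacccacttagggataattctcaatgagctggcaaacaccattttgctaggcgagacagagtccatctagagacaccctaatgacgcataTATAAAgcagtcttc
Krt71: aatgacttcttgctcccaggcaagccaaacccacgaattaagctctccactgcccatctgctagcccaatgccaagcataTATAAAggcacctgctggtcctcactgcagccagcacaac
Krtap8-1: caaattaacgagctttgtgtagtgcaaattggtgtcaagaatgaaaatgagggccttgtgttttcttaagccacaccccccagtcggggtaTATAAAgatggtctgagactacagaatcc

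In 4 hair shaft keratins of chromosome 11 both motifs occur, and CTTTGAA lies at nearly the same distance from the start, beginning 244 bases before it in Krt31, 247 in Krt32 and Krt33b, and 240 and 133 in Krt34. The window of 250 bases is shown, on the minus strand, for Krt31 (chr11:100050552-100050801), Krt32 (chr11:100088270-100088519), Krt33b (chr11:100029869-100030118) and Krt34 (chr11:100041555-100041804). Krt32 and Krt33b were added after their values and sequences had been seen.
Krt31: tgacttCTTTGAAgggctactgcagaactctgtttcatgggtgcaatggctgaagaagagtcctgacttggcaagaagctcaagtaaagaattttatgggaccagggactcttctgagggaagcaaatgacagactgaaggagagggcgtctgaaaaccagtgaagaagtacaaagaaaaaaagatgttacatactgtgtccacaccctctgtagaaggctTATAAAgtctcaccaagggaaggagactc
Krt32: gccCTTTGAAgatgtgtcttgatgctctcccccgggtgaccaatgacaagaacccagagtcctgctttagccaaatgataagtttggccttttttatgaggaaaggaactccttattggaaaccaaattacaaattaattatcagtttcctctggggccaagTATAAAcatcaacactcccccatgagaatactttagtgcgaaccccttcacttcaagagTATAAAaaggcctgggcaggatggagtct
Krt33b: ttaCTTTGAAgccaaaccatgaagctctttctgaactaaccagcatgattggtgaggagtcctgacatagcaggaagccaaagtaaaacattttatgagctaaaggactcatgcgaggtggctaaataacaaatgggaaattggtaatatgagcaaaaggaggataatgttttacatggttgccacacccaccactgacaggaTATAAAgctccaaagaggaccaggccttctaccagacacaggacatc
Krt34: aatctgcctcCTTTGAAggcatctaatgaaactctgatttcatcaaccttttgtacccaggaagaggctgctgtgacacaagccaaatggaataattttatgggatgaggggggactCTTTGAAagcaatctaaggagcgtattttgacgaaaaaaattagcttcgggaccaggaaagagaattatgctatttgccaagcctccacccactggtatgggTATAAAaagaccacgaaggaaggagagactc

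The motifs were then counted over both strands of the 250 bases before each start. They cannot overlap each other. Of the 39 genes that were at least 2-fold higher in the 3 arrays, Krt25 included, 30 have a window in the reference table. TATAAA occurs in 15 of these 30 and in 14.3% of the 27025 genes with a window. Within the last 50 bases and on the strand of the gene it occurs in 11 of 30 (36.7%) against 3.15% of all genes. CTTTGAA occurs in 7 of 30 (23.3%) against 5.19% of all genes, and within the last 50 bases on the strand of the gene in 0 of 30 against 0.403%. Several of these promoters belong to neighbouring copies of one family and are not independent of each other. A match describes the letters in the window and says nothing about binding.

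Apart from Krt25, 48 of 7884 kept probe sets were at least 2-fold higher in the 3 arrays with no overlap with the 6 (0.609%), and 7 were at least 2-fold lower with no overlap (0.0888%). Without a minimum size, 231 did not overlap on the higher side (2.93%) and 248 on the lower side (3.15%). Differences are means of log2(signal + 32), the 3 arrays minus the 6, and the 2-fold limit is a difference of 1 on that scale, which understates the fold of dim probe sets. The 48 higher probe sets name 38 genes, with 5 probe sets that carry no gene name and 1 that names several genes. Of these 38 genes, 26 belong to a follicle or pigment list. The lists were chosen with earlier results of these data known. The share of their members among all kept genes was not counted, so nothing is read from this count. The mean of the 6 low arrays was under 50 for 22 of the 48, so these folds start from signals near the noise. By the strictest reading, with the lowest of the 3 signals more than 2-fold above the highest of the 6, 22 probe sets remained. The 7 lower probe sets name 6 genes. Their number was 12 without knockout 2, 17 without knockout 4 and 15 without knockout 5. The counts are properties of arrays sorted by Krt25 and support nothing by themselves.

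**Figure D2:**
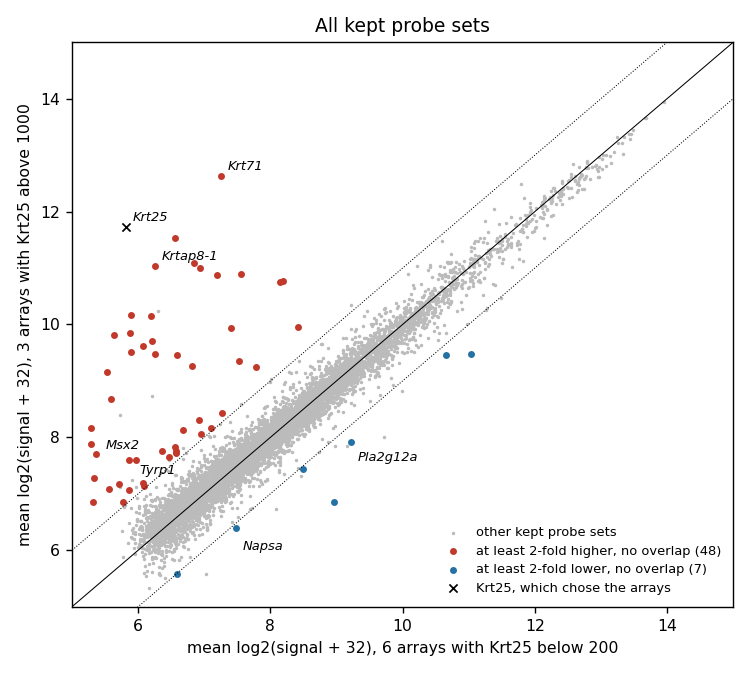
Each of the 7884 kept probe sets apart from Krt25, by its mean log2(signal + 32) in the 6 low-Krt25 arrays (horizontal axis) and in the 3 high-Krt25 arrays (vertical axis); the black cross is Krt25, which chose the arrays. Dotted lines mark 2-fold; the 48 red points lie from just above the upper line (Slc7a8, 1.05) to far above it (Krt71, 5.38), and the 7 blue points run from the lower line to a difference of -2.10.

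The kept inner root sheath genes were higher as a group. A gene was kept on reaching an array's 40th percentile in at least 3 arrays. Genes at the noise in all 6 low arrays were thus kept only through the 3 high ones. Among these were Padi3, Tchh, Krt83, Krtap9-1, Crym, Msx2 and Tyrp1. List members at the noise in nearly all arrays were dropped, so medians and shares of kept genes may overstate those of the whole higher lists. Of 16 listed genes 10 are on the array and 7 were kept, of which 5 were at least 2-fold higher and 6 did not overlap, and the median difference was 2.45, against 0.004 over all 6007 kept genes. Over all kept genes, 35 were at least 2-fold higher by the probe set shown, and 172 did not overlap on the higher side and 194 on the lower. Krt71, the type II keratin that pairs with Krt25 in the inner sheath, read 3892.5, 9340.4 and 6924.5 in knockout 1, 2 and 5. It read 167.5 and 36.5 in knockout 3 and 4, and 216.6, 55.5, 445.8 and 54.8 in wild type 1 to 4. The mean was 6719 ± 2730 (SD, n = 3) against 163 ± 156 (SD, n = 6), a log2 difference of 5.38.

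Krt27, a type I keratin of the same layer, read 1724.6, 4148.2 and 3441.2 in the 3 arrays and 12.9 to 233.1 in the 6, with wild type 3 the highest of the 6. Krt72, a type II keratin of the sheath cuticle, read 245.8, 734.5 and 1046.1 against 56.7 to 130.9. Both therefore separated the groups, and in both knockout 1 was the lowest of the 3. Padi3, an enzyme that converts arginine to citrulline in trichohyalin, read 172.3, 622.1 and 483.3 against 4.5 to 33.6. Tchh, trichohyalin itself, was shown at 70.5, 152.8 and 126.6 against 12.1 to 31.3 by one probe set, and its second kept probe set was also at least 2-fold higher. The member that did not follow was Gata3, a transcription factor of the sheath that T cells and the epidermis also express, with a difference of -0.13 and overlapping arrays.

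Hair shaft keratins were higher in nearly all members. All 10 listed keratins on the array were kept, 9 were at least 2-fold higher without overlap, and the median difference was 2.59. Krt35 had the largest, 3.97, and its second probe set gave 2.87. Krt31, a keratin of the shaft cortex, read 247.6, 1686.2 and 1174.3 in knockout 1, 2 and 5 against 21.8 to 115.1. Krt34, also of the cortex, read 192.3, 1173.3 and 1425.8 against 3.6 to 114.5. Krt83, a type II hair keratin, read 159.3, 1032.0 and 872.3 against 11.8 to 20.9. In each of these cortex genes knockout 1 was several-fold below knockout 2 and 5 but still above all 6 low arrays.

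Krt81 and Krt86, type II partners in the cortex, read 558.8, 3032.8 and 2763.5 and 685.8, 2624.6 and 2793.4 in knockout 1, 2 and 5. Their highest low arrays were 461.0 and 330.8, both wild type 3. Krt33b had a log2 difference of 2.54 and Krt32, a cuticle keratin, 1.53. These 4 genes and Tchh were named after their values had been seen. Some keratin probe sets, among them those of Krt27 and Krt35, carry the array's suffix for probes that can match several family members, so single keratins may share signal.

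Genes of keratin-associated proteins and other shaft structures gave the highest list median, 2.92 over 10 kept genes of 44 listed and 16 on the array. The rest of those on the array did not pass the filter and do not enter this median. Of these, 6 were at least 2-fold higher without overlap and 8 did not overlap. Krtap8-1, a high glycine-tyrosine protein of the shaft, read 599.8, 3842.2 and 3728.0 in knockout 1, 2 and 5. It read 74.1, 17.2, 48.0, 2.6, 276.2 and 10.9 in knockout 3 and 4 and wild type 1 to 4. Krtap9-1, an ultra-high sulphur protein, read 215.2, 1745.3 and 3428.7 against 21.1 to 29.8, a level at the noise in all 6. Krtap3-1, a high sulphur protein, read 626.0, 3402.0 and 4455.5 against 33.9 to 428.3. In all 3 genes knockout 1 lay far below knockout 2 and 5, and in Krtap8-1 and Krtap3-1 wild type 3 stood highest of the low arrays.

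Krtap14 read 111.6, 1446.0 and 1692.1 against 17.7 to 107.7, so knockout 1 exceeded wild type 3 by very little, and the separation was lost after median centring and after quantile normalization. Gm10229, a gene on chromosome 16, was alike, with 285.7, 4737.3 and 5581.2 against 39.5 to 278.2, and its separation was lost after median centring. S100a3, a calcium-binding protein of the hair cuticle, read 1063.9, 2839.5 and 2077.1 against 62.0 to 284.5. Crym, mu-crystallin, a thyroid hormone binding protein that was placed in this list, read 71.2, 280.0 and 379.2 against 1.6 to 29.3.

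**Figure D3:**
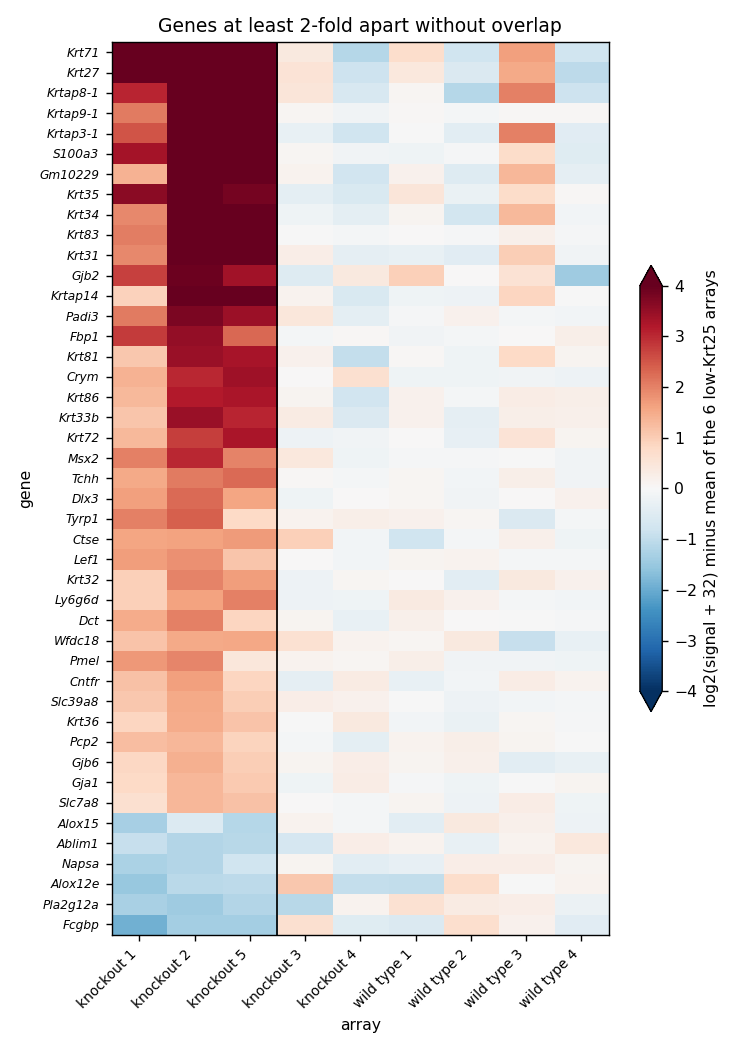
Heat map of the 38 higher and 6 lower genes (rows) in the 9 arrays (columns, the 3 high-Krt25 arrays left of the line), as log2(signal + 32) minus the mean of the 6 low arrays; colours are capped at 4 either way. Each gene is drawn by its called probe set with the largest difference. Knockout 1 is paler than knockout 2 and 5 for most shaft genes, and wild type 3 shows the most red among the low arrays for the genes at the top.

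Keratins of the outer root sheath and companion layer did not follow the shaft. Of 10 listed genes 7 are on the array and 4 were kept, none of which separated the groups, and the median difference was -0.69. Krt6b, which is also made by stressed epidermis, read 233.4, 212.7 and 231.1 in knockout 1, 2 and 5, 393.8 and 945.7 in knockout 3 and 4, and 2020.6, 1379.8, 1136.5 and 212.8 in wild type 1 to 4. Krt16, another keratin of this list, read 48.3, 76.6 and 107.1 in the 3 arrays, 149.0 and 459.6 in knockout 3 and 4, and 472.9, 361.4, 257.5 and 44.2 in wild type 1 to 4. Both were lower in the 3 arrays than in 5 of the 6, the exception being wild type 4. Inside the knockout arrays both were at least 2-fold lower without overlap, with differences of -1.32 for Krt6b and -1.48 for Krt16. There, 10 of all 6007 kept genes were lower by that rule. Krt17 (-0.04) and Krt6a (0.06) lay at the same level in both groups within their spread.

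Among 20 kept transcription factors of the follicle, 2 were at least 2-fold higher without overlap and 4 did not overlap, with a median difference of 0.21. Msx2, a homeodomain factor of the hair matrix, read 133.8, 298.9 and 130.8 in knockout 1, 2 and 5 and 4.6 to 23.2 in the 6, so it was at the noise wherever Krt25 was low. Dlx3 followed with a difference of 1.83 (635 ± 184 against 152 ± 16.4). Foxn1, which drives keratin genes in the shaft and is missing in nude mice, read 65.0, 105.2 and 71.5 against 4.4 to 44.3.

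Lef1, the factor through which Wnt signals act on hair keratin genes, is read by a pair of kept probe sets that differ. The brighter gave 496.8, 583.1 and 363.5 in knockout 1, 2 and 5 against 152.8 to 363.4, a difference of 0.77. The dimmer gave 95.8, 108.8 and 54.6 against 5.4 to 11.8, a difference of 1.54. Both separated the groups, the brighter by very little.

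Genes of follicle signalling showed small differences. Of 48 kept genes of the Wnt, BMP, hedgehog, FGF and Eda pathways, none was at least 2-fold apart without overlap, 5 did not overlap on the higher side and 4 on the lower, and the median was 0.16. Shh, the hedgehog ligand made by matrix cells, read 147.3 and 177.0 in knockout 1 and 2 but 60.7 in knockout 5, inside the 9.0 to 65.5 of the low arrays. Ptch1, the hedgehog receptor and a target of the pathway, read 310.1 and 219.5 in knockout 1 and 2 and 95.4 in knockout 5, against 71.5 to 134.9. Ligand and receptor thus set knockout 1 and 2 apart from the other 7 arrays. On the lower side, Fgf18, a growth factor of the resting bulge, read 47.2, 24.8 and 12.6 against 57.6 to 88.4, so the 3 arrays were below the noise limit. Igfbp3, which binds insulin-like growth factors, read 412.5, 360.3 and 428.1 against 477.4 to 1201.3. Each was lower in all 3 arrays, with differences of -0.90 for both.

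Dermal papilla and sheath genes had a median difference of 0.12 over 13 kept genes, with 1 that did not overlap. This was Inhba, a subunit of activin, at 83.7, 67.3 and 81.6 against 33.7 to 59.5. Vcan, versican, a matrix proteoglycan of the papilla, read 180.5, 133.1 and 105.8 against 51.0 to 127.2. It separated the groups inside the knockout arrays, where the low ones read 51.0 and 53.7, but not over all 9. Bulge and germ genes had a median of -0.12 over 17. Of these, 2 were lower without overlap, among them Fgf18, beside 194 of all 6007 kept genes. Lgr5, a stem cell receptor, overlapped (27.6 to 59.5 against 11.9 to 56.8).

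Pigment genes were higher, but unevenly among the 3 arrays. Of 23 listed genes 16 are on the array and 8 were kept, of which 3 were at least 2-fold higher without overlap, 4 did not overlap and 7 had a difference above 0, with a median of 0.83. Dct, an enzyme of melanin synthesis, read 590.1, 856.2 and 365.6 in knockout 1, 2 and 5 and 148.6 to 221.5 in the 6. Pmel, the protein of the fibrils on which pigment is laid down, read 374.3, 433.3 and 133.6 against 76.5 to 109.8. Tyrp1, a melanosomal enzyme, read 201.8, 273.7 and 69.0 against 6.8 to 36.5. In each, knockout 5 was the lowest of the 3 and knockout 2 the highest.

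Kit, a receptor that melanocytes need, read 80.5, 100.9 and 107.9 against 45.6 to 68.1. Sox10, a factor of melanocytes that nerve sheath cells also carry, had a difference of -0.01. Mitf, the regulator of the pigment enzymes, read 49.6, 68.9 and 81.5 against 28.7 to 53.8, close to the noise. The enzymes and the fibril protein therefore differed more than the lineage factors among the kept genes, and no test was made of that contrast.

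Cell cycle and replication genes were higher by less. Of 84 listed genes 76 are on the array and 63 were kept, 61 of them with a difference above 0, none at least 2-fold apart without overlap and 3 without overlap, and the median was 0.37. Mki67, a protein of dividing nuclei, read 206.1, 230.7 and 115.8 in knockout 1, 2 and 5, against 148.5 in knockout 4 and 35.0 to 100.6 in the other 5. Plk1, a kinase of mitosis, read 292.0, 239.4 and 163.0 against 59.3 to 165.3. Kif22, a chromosome motor, read 522.3, 419.5 and 192.9 against 84.7 to 251.2, and Kif20a, a motor of late division, 157.7, 110.0 and 68.1 against 7.1 to 79.8. All 4 overlapped through knockout 5, which read lowest of the 3 in each. With each gene centred on its mean over all arrays, the list median was 0.49 in knockout 1, 0.30 in knockout 2 and -0.05 in knockout 5, against -0.31 to 0.08 in the 6.

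**Figure D4:**
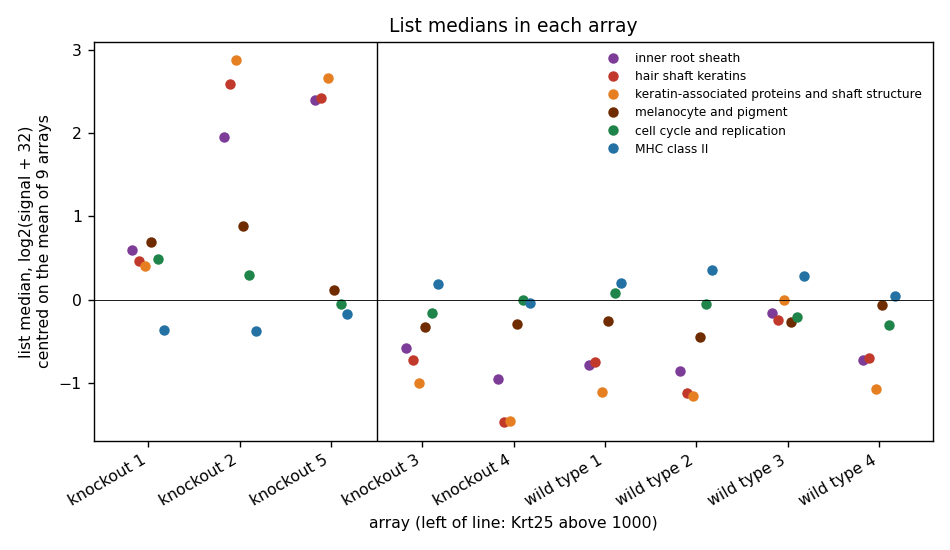
Median of log2(signal + 32) over the kept genes of 6 lists in each array, each gene centred on its mean over the 9 arrays; arrays left of the line have Krt25 above 1000. Inner sheath, shaft keratin and keratin-associated protein medians are 1.96 to 2.88 in knockout 2 and 5 but 0.40 to 0.60 in knockout 1, whereas pigment and cell cycle medians are higher in knockout 1 and 2 than in knockout 5.

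In a list of 24 kept junction and adhesion genes, 2 were at least 2-fold higher without overlap, 13 had differences above 0 and 11 below, and the median was 0.06, or -0.02 without knockout 2. Gjb2, connexin 26, read 1201.0, 2814.4 and 1898.7 in knockout 1, 2 and 5 against 38.6 to 328.8, a difference of 3.34. Gjb6, connexin 30, read 64.9, 114.5 and 77.2 against 8.8 to 34.4. Gja1, connexin 43, read 2044.3, 3317.5 and 3291.3 against 1165.0 to 1802.9. These 3 connexins, which form gap junctions, separated the groups, with differences of 1.08 for Gjb6 and 0.89 for Gja1, the latter short of the 2-fold limit by this probe set. Lamb3, a chain of basement membrane laminin, read 517.1, 485.0 and 598.6 against 622.8 to 920.8.

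Fbp1, fructose bisphosphatase, a sugar-making enzyme that belonged to no list, read 242.7, 413.2 and 160.3 in knockout 1, 2 and 5 and 3.6 to 14.5 in the 6, a difference of 2.87. Slc7a8, a transporter of neutral amino acids, read 74.4, 137.4 and 122.2 against 27.3 to 51.8. Arg2, the mitochondrial arginase, read 101.4, 61.0 and 57.4 against 28.3 to 43.2. The 24 kept genes of polyamines and amino acid handling had a median of 0.25, and 6 of them were higher without overlap. Gatm, which makes the precursor of creatine, was lower, at 187.4, 187.2 and 182.0 against 211.0 to 368.2.

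At the 2-fold limit fewer probe sets were lower than higher, 7 against 48, whereas without a minimum size the counts were 248 and 231. Pla2g12a, a secreted phospholipase, read 207.5, 191.4 and 233.7 in knockout 1, 2 and 5, 240.9 and 620.5 in knockout 3 and 4, and 473.8 to 881.6 in wild type 1 to 4. Its difference was -1.30, but its second kept probe set gave 0.05. Napsa, an aspartic protease, read 42.0, 47.4 and 69.9 against 99.6 to 182.8, and Ablim1, an actin-binding protein, 157.7, 128.9 and 135.9 against 192.0 to 450.9. Alox15, a lipoxygenase, read 6.5, 33.6 and 11.3 against 39.7 to 93.9, in part below the noise.

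Alox12e, an epidermal lipoxygenase, was at least 2-fold lower by one probe set (539.7, 729.8 and 753.3 against 789.6 to 3389.6) and overlapped by its brighter one, with a difference of -0.81. It lies outside the rule for naming genes. Fcgbp, a mucin-like protein that binds IgG, read 1082.7, 1222.1 and 1399.0 against 1940.4 to 3670.5, with -0.97 by this probe set and -1.55 by the other. Sult5a1, a sulphotransferase, read 117.5, 164.6 and 148.7 against 198.4 to 495.3. Tnfrsf4, a receptor of activated T cells, read 28.6, 16.5 and 29.9 against 59.2 to 76.2, so the 3 arrays were below the noise limit. All 8 of these genes were lower in each of the 3 arrays than in any of the 6 by at least 1 probe set.

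Antigen presentation genes were lower by small amounts. The MHC class II pathway displays peptides to helper T cells, and all 12 of its kept genes had differences below 0, with a median of -0.39 and 6 that did not overlap. H2-Ab1, a class II chain, read 1124.1, 1097.5 and 1424.1 in knockout 1, 2 and 5, 1822.8 and 1828.4 in knockout 3 and 4, and 1611.9 to 2331.1 in wild type 1 to 4. H2-Aa, its partner chain, read 2743.0, 2727.0 and 3357.1, then 4482.6 and 4288.7 in knockout 3 and 4, and 4063.5 to 5055.8 in the wild type. For both, knockout 3 and 4 lay within the wild-type range and knockout 1, 2 and 5 below it. H2-Eb1 differed from this, with 2541.6 in knockout 4 beside 2544.9 in knockout 5. Ifi30, a thiol reductase of the antigen-processing compartment, read 209.9, 204.5 and 241.7 against 329.6 to 472.5.

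Of the 16 kept genes for MHC class I molecules and the peptides they load, 15 were below 0 and 5 did not overlap, with a median of -0.30. Tapbp, tapasin, which loads peptides onto class I, read 527.7, 530.5 and 649.6 against 703.7 to 904.5. Tap1, a peptide transporter subunit, read 525.3, 493.0 and 609.5 against 679.0 to 864.4. B2m, the class I light chain, read 3628.0, 3243.9 and 3475.3 against 4202.9 to 5179.0. In B2m knockout 3 and 4 read 4202.9 and 4404.8, between the 3 arrays and the wild type.

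Macrophage, dendritic and Langerhans cell markers were below 0 in 32 of 35 cases, with a median of -0.25 and 8 that did not overlap. Ctss, a protease that prepares class II molecules for peptide, read 1201.8, 1093.5 and 1245.3 against 1508.3 to 2207.6. Laptm5, which sits in leukocyte lysosomes, read 825.4, 1012.5 and 1057.3 against 1146.4 to 1511.8. Here knockout 3 and 4 lay between the 3 arrays and the wild type, and inside the knockout arrays the median was -0.14. Interferon response genes had a median of -0.21 over 29, with 4 that did not overlap, among them Isg20, a nuclease (14.6, 22.6 and 40.4 against 41.7 to 78.2), and Igtp, a GTPase (65.5, 50.9 and 66.4 against 78.2 to 121.1). T, NK and B cell genes had a median of -0.17 over 18, none without overlap. Whether these lists follow the share of immune cells in the samples was not tested.

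Other tissues of the skin were covered by further lists. Skeletal muscle genes had a median of -0.23 over 40, with 5 that were lower without overlap. Myom1, a protein of the sarcomere's M line, read 350.1, 375.6 and 318.1 against 463.7 to 700.2, and Cox6a2, the muscle form of a respiratory chain subunit, 1637.4, 1823.9 and 1510.1 against 2059.2 to 4119.2. Muscle medians per array were -0.22 to -0.04 in the 3 arrays and -0.10 to 0.48 in the 6, so they overlapped. Endothelium and vessel wall genes had a median of -0.17 over 25. Cldn5, a tight junction protein of endothelium, was the member without overlap (107.2, 101.3 and 120.2 against 135.5 to 262.4).

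Interfollicular epidermis genes had a median of -0.07 over 22, adipocyte genes -0.08 over 32 and dermal matrix genes 0.10 over 44. Krt1, of the differentiating epidermis, spanned 1402.7 to 2216.0 in the 3 arrays and 1295.2 to 5312.3 in the 6. Casp14, a protease of cornifying cells, read 568.8, 697.4 and 297.7 against 169.5 to 309.8, so knockout 1 and 2 lay above the rest and knockout 5 did not. Col15a1, a collagen next to basement membranes, read 577.1, 506.1 and 533.9 against 158.6 to 409.4. Pdk4, a kinase that limits sugar oxidation, ran from 144.4 to 331.4 in the 3 arrays and reached 2427.3 and 2424.6 in wild type 3 and 4.

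Besides the junction list, medians near 0 that took either sign when 1 array was left out were those of sebaceous and cholesterol synthesis genes (-0.02 over 29), red cell genes (-0.03 over 10) and clock genes (-0.03 over 15). Tef, a factor with a daily rhythm, was the clock gene without overlap, at 733.8, 483.2 and 634.0 against 830.4 to 1184.1.

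**Figure D5:**
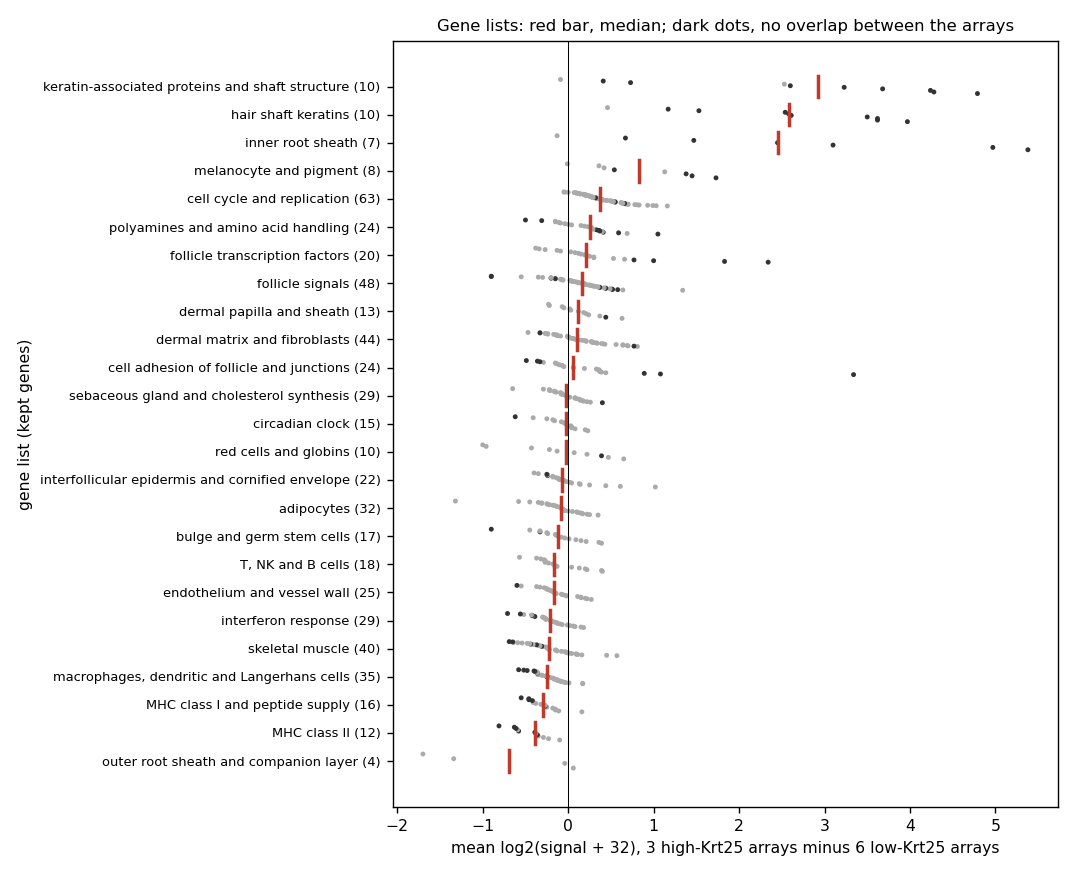
Differences of the kept genes of 25 lists, as mean log2(signal + 32) in the 3 high-Krt25 arrays minus the 6 low ones; dark dots are genes whose arrays do not overlap, grey dots overlap, and red bars are list medians. The 3 lists of shaft and inner sheath have medians of 2.45 to 2.92, pigment genes 0.83, and the other lists -0.69 to 0.37.

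The comparison was repeated with the genotype held fixed. Inside the 5 knockout arrays, knockout 1, 2 and 5 against 3 and 4, 63 of 7884 probe sets were at least 2-fold higher without overlap (0.799%) and 14 were lower (0.178%). Of the 48 probe sets found higher over all 9 arrays, 43 were among the 63, and all 48 kept the 3 arrays above the other 2, as they must by construction. Of the 7 lower probe sets 4 were among the 14. The comparisons share the 3 high arrays and 2 of the low ones, so this is no independent repeat. With 2 low arrays the counts are unstable: without knockout 3 they were 288 higher and 47 lower, and the lower count was 32 without knockout 4 and 25 without knockout 5. Inside the knockout arrays the median difference was 2.62 for inner sheath genes, 2.96 for shaft keratins, 3.18 for keratin-associated proteins, 0.90 for pigment genes and 0.37 for cell cycle genes. For MHC class II it was -0.36 and for class I -0.37. Other lists differed from the comparison over all 9 arrays. The sebaceous and cholesterol synthesis median was -0.28 in place of -0.02, and the red cell median 0.13 in place of -0.03. The dermal papilla median was -0.04 in place of 0.12, the junction median -0.09 in place of 0.06 and the bulge median -0.29 in place of -0.12. Interfollicular epidermis gave -0.22 in place of -0.07, adipocytes -0.22 in place of -0.08 and clock genes -0.17 in place of -0.03. Krt36 missed the 2-fold limit there with 0.99, since knockout 4 read 169.5.

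The 3 high arrays were not alike. Among the 48 higher probe sets, knockout 2 was the highest of the 3 in 34, knockout 5 in 13 and knockout 1 in 1, and knockout 1 was the lowest in 36. All 10 shaft keratins were lower in knockout 1 than in knockout 5, with a median log2 difference of -1.97, and 8 of 10 genes of the keratin-associated protein list were, with a median of -2.28. The widest range among the 3 arrays was that of Gm10229 (4.14), then Krtap9-1 (3.81) and Krtap14 (3.59). Cell cycle genes ran the other way, with 59 of 63 higher in knockout 1 than in knockout 5 (median 0.54) and 59 of 63 higher in knockout 2 than in knockout 5 (median 0.36). Of 8 pigment genes 6 were higher in knockout 1 than in knockout 5, with a median of 0.61. Relative to each other, knockout 1 thus had lower shaft products beside higher pigment and division genes, and knockout 5 had the reverse for most members. Kit and Mitf were exceptions, highest of the 3 in knockout 5 (107.9 and 81.5). Knockout 2 had all 3 kinds of genes high. These are single mice, and the differences between them have no replicate.

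The 6 low arrays differed too. Wild type 3 was the highest of the 6 in 21 of the 48 higher probe sets, knockout 3 in 9 and wild type 2 in 2. Its list median for keratin-associated proteins was 0.00, above the other 5, of which knockout 4 was lowest at -1.46. Its Krt71 of 445.8, Krtap3-1 of 428.3 and Krtap8-1 of 276.2 lie below knockout 1 and above the other low arrays. Its Krt83 of 20.9 and Krtap9-1 of 29.2 were at the noise, and its cell cycle median of -0.21 lay among those of the other low arrays. Across all 7885 kept probe sets, Pearson correlations were 0.967 to 0.973 among the 3 high arrays, 0.927 to 0.973 among the 6 low ones and 0.911 to 0.962 between them, as a description across probe sets that share the same chips.

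The labels themselves compare 5 knockout with 4 wild-type mice. High Krt25 occurred in 3 of 5 knockout and 0 of 4 wild-type arrays (Fisher's exact test, two-sided, p = 0.167). The classes come from the Krt25 rule, and with 3 high arrays no split that favours the knockout can give a smaller p, so this test could not have shown an unequal share in that direction. Cd1d1, the targeted gene, ranged over 47.6 to 79.6 in the 5 knockout arrays and over 91.0 to 130.0 in the 4 wild-type arrays, with no overlap. Its log2 difference, knockout minus wild type, was -0.61 (limma adjusted p = 0.222), and whether its probes lie in the deleted part was not tested here. Its signals in knockout 1, 2 and 5 do not stand apart from those in knockout 3 and 4 (difference -0.07).

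Over all 9 arrays limma called 4 of 7885 probe sets for genotype (0.0507%), none of them among the 48 higher or 7 lower ones. The count was 7 without knockout 2 or knockout 3 and 9 without knockout 4. Among the 4 calls over all 9 arrays were the globins Hba-a1 and Hbb-b2. Their knockout minus wild type differences were -1.36 (limma adjusted p = 0.00739) and -1.28 (0.00803). Krt71 had a knockout minus wild type difference of 2.89 (limma adjusted p = 0.52), Krt35 1.93 (0.565), Dlx3 1.03 (0.491) and H2-Ab1 -0.41 (0.5). Between the 2 knockout and 4 wild-type arrays with low Krt25 these differences were -0.57 (limma adjusted p = 0.869) for Krt71, -0.76 (0.748) for Krt35, -0.11 (0.904) for Dlx3 and -0.06 (0.961) for H2-Ab1. In that fit limma called 0 of 7885 probe sets, with 490 at an unadjusted p under 0.05, and with Krt25 class as a term in all 9 arrays it called 0, with 726. A p that misses the threshold in 2 against 4 arrays does not show that the genotypes were alike.

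The deposited values have 7 decimals for knockout 1 and 2 and wild type 2 to 4, and 9 decimals for knockout 3 to 5 and wild type 1. Within the 7-decimal arrays, 2 high against 3 low, all 48 higher probe sets had differences above 0 with a median of 2.04, and the 7 lower ones had a median of -1.48. Within the 9-decimal arrays, 1 high against 3 low, all 48 were again above 0, 40 of them by at least 2-fold, with medians of 2.31 and -1.03. All 7 lower probe sets were below 0 in both. These signs are fixed by the choice of probe sets without overlap. The sizes are not independent either, since the probe sets were chosen for a 2-fold difference over the same 9 arrays. What the number of decimals stands for is not given in the sources used here.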

How the data were processed

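RNA of whole skin from 5 Cd1d -/- and 4 Cd1d +/+ mice, 1 array per mouse, was hybridised to Affymetrix MG-U74 GeneChips. Per the labels, the authors processed the arrays with Microarray Suite 5.0. The deposited values are natural log signals: their exponentials are multiples of 0.1 to within 0.000597, and the 2% trimmed mean is 200.1 in every array. Of 12488 probe sets, 66 controls and 1 with a missing value were left out. Gene names came from the platform annotation (10833 probe sets with 1 gene, 396 with several, 1193 with none), and 10817 matched GRCm38.p6 by Entrez ID.

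Signals were taken as log2(signal + 32) with no further scaling. A probe set was kept when it reached its array's 40th percentile in at least 3 arrays, which left 7885. This minimum equals the size of the high group, so some probe sets were kept through the high arrays alone. Where several kept probe sets read a gene, the brightest on average over the 9 arrays stands for it. Arrays were chosen by Krt25, and that contrast carries no test. Genotype was tested with limma 3.58.1 under R 4.3.3 (lmFit, eBayes with trend, two-sided, Benjamini-Hochberg over 7885, threshold 0.05). The fit was tested on simulated data. Other steps used Python 3.11.15. Detection calls were not used here, and the number of mice limits the precision.

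The members, the 25 gene lists and the settings were chosen with earlier results of these data known. The rule for names took Krt25 and its 3 companion markers, the 15 highest and 10 lowest genes without overlap, up to 4 genes per list, the 8 higher genes with the widest range among the 3 arrays, and Cd1d1. Alternatives covered the pseudocount, filter, scaling, size limit, number format, left-out arrays and covariates.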

Additional observations from a re-analysis of the deposited data

Results flagged for a closer look

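Within each genotype, 29 genes and 25 list medians were examined for a sample far from the others, and 6 of 108 groups had one, where chance gives about 1 in 20. Krt25 of wild type 3 was 148.3, while the other wild-type arrays read 3.0 to 13.4. The median of keratin-associated proteins and shaft structure, centred on the 9 arrays, was 0.00 in wild type 3 and -1.16 to -1.08 in the others. Both concern the same mouse. Krtap9-1 of wild type 2 was 24.6 beside 29.2 to 29.4, a gap at the noise of the chip. The median of the follicle signals list was -0.26 in wild type 2 and 0.00 to 0.02 in the other wild-type arrays. Pla2g12a of knockout 4 was 620.5, while the other knockout arrays read 191.4 to 240.9. The median of the interfollicular epidermis list was 0.24 in knockout 4 and -0.07 to 0.01 in the others.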

How the results depend on the processing

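The 48 higher probe sets became 28 with a pseudocount 4 times larger, 231 with no minimum size, 86 in the 7-decimal arrays and 46 to 66 when 1 array was left out. The 7 lower ones became 15 with no pseudocount, 4 with the larger one, 12 after median centring, 248 with no minimum size, 35 and 37 in the 7-decimal and 9-decimal arrays, and 6 to 17 with 1 array left out. Inside the knockout arrays the 63 higher became 142 with no pseudocount, 34 with the larger one, 971 with no minimum size and 66 to 288 with 1 array left out, and the 14 lower became 46, 6, 1280 and 19 to 47. The 4 limma calls for genotype became 7 with no filter, 9 after median centring, 4 to 9 with 1 array left out, 0 without the 3 high-Krt25 arrays and 0 with Krt25 class as a term. With the replicate block, on replicates 1 to 4, limma called 1, against 4 on the same arrays without the block, a fit added after seeing the data. The numbers were not shown to pair the mice: correlations of same-numbered deviations were 0.12, 0.0069, -0.0453 and 0.0103. Causes were not tested. No difference of a named gene past the 2-fold limit and no count reversed. Differences near 0, such as those of Krt17 (-0.04) and Krt6a (0.06), can change sign when 1 array is left out. Of 28 named genes past the 2-fold limit, 10 missed it or overlapped under at least 1 alternative (Krt36, Gm10229, Krtap14, Napsa, Ablim1, Alox15, Tyrp1, Pmel, Gjb6 and Slc7a8). Of 350 alternative list medians 338 moved by less than the spread between arrays. Low signals limit the folds of 22 of the 48 higher probe sets, whose mean over the 6 arrays was under 50, and no detection calls were used.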

Other observations

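Beyond the named lists, 6 further genes were at least 2-fold higher in the 3 high-Krt25 arrays without overlap, chosen here after their values had been seen. Ctse, the protease cathepsin E, read 155.5, 157.9 and 173.6 in knockout 1, 2 and 5 against 4.2 to 88.9 by its dimmest kept probe set, a difference of 1.63. Its other probe sets gave 0.53 and 0.47. Cntfr, the receptor of ciliary neurotrophic factor, read 97.8, 147.7 and 72.3 against 13.7 to 40.7. Slc39a8, a zinc transporter, read 167.8, 235.8 and 153.7 against 50.9 to 80.5. Pcp2, known from Purkinje cells of the cerebellum, read 193.1, 204.5 and 144.8 against at most 79.4, and its second kept probe set overlapped with 0.13. Ly6g6d, a surface protein of the Ly6 family, and Wfdc18, a small secreted protein, complete the 6.

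The share of the 38 higher genes on a chromosome was set beside that of all kept genes, without a test. Chromosome 11 held 11 of them (28.9%) and 9.14% of all kept genes, and chromosome 15 held 5 (13.2%) against 4.34%. Chromosome 14 held 4 (10.5%) against 3.28%, chromosome 3 held 4 (10.5%) against 5.26%, and chromosome 16 held 3 (7.89%) against 3.06%. Chromosomes 4, 10 and 13 held 3, 2 and 2 (7.89%, 5.26% and 5.26%) against 6.23%, 4.63% and 3.26%. On the other side, chromosomes 1, 7, 8 and 17 held 1 each (2.63%) against 5.44%, 7.94%, 5.28% and 5.46%. Most of these counts are small. Chromosomes 11 and 15 carry the type I and type II keratin gene clusters. The genes of a cluster are neighbours and close copies, so they are not independent observations.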
